A study of Mus musculus with 7 samples.

Results

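The genes described here encode the enzymes that make cholesterol and the proteins that sense it, move it, store it, export it and oxidize it. They form a list of 37 genes named by their step in the pathway. The rule uses no measured value, but the list was drawn up with earlier results of these data known. Of these, 36 had a row in the table of 18468 genes, with Msmo1 under its older symbol Sc4mol. Hmgcs1 was not analysed here. C3H10T1/2 cells, an established mouse line of mesenchymal character, were kept in serum-free medium for 12 h before a treatment of 48 h, either with purmorphamine at 2 μM (n = 4 libraries, numbered 5 to 8) or with DMSO at 0.02% as vehicle (n = 3 libraries, numbered 2 to 4). The labels of both groups name no introduced gene or virus, and purmorphamine is an agonist of Smo, here the one the cells express themselves. Nothing in the labels or methods says that the libraries of a group came from separate cultures, so that p-values measure the spread between these libraries, which may be technical.

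Cholesterol is built from acetyl-CoA by way of mevalonate, farnesyl diphosphate, squalene and lanosterol. When sterols in the endoplasmic reticulum run low, the Insig proteins no longer hold Scap and the SREBP transcription factors there. The SREBPs then turn on the enzymes of synthesis, whereas oxysterols activate the liver X receptors (LXR), which turn on genes for export. Sterols matter to Hedgehog signaling in particular, since the Hedgehog ligands carry a covalently bound cholesterol, and since cholesterol and certain oxysterols bind Smo and promote its activation. Serum, the usual source of lipoprotein cholesterol for cultured cells, was absent from the medium of both groups.

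Upstream sequence of 4 members is shown because these genes changed in opposite directions (the enzymes Hsd17b7 and Nsdhl fell, whereas the enzyme Ebp and the sterol sensor Insig1 rose, as described further on), and because each holds the CCAAT box, the site of the factor NF-Y, which is known to act together with SREBPs. The sequences are the 250 bases before the annotated start in RefSeq (GRCm38.p6), read 5′ to 3′ on the strand of the gene, with every CCAAT or its reverse complement ATTGG in capitals. Hsd17b7 lies on the minus strand at chr1:169969206-169969455, Nsdhl on the plus strand at chrX:72918271-72918520, Ebp on the minus strand at chrX:8193513-8193762 and Insig1 on the plus strand at chr5:28071162-28071411.
Hsd17b7: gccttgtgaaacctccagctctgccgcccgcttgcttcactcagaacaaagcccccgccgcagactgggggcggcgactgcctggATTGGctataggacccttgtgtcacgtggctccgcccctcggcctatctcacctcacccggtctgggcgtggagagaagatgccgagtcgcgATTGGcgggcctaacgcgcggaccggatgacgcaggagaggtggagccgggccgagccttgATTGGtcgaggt
Nsdhl: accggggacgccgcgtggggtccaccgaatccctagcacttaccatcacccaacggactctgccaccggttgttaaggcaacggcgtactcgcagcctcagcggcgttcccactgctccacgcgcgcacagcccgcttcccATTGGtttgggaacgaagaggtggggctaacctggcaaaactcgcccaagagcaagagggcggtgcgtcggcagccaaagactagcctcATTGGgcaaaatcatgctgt
Ebp: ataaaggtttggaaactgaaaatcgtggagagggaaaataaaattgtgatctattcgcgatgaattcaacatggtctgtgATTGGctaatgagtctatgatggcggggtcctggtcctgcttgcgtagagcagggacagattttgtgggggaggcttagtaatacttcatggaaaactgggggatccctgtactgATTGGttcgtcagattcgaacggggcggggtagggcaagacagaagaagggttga
Insig1: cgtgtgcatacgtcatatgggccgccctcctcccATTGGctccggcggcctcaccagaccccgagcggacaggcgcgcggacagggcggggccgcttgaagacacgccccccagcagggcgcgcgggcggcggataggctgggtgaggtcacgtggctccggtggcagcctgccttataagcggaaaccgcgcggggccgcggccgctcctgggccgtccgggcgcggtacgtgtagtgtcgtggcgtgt

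The stretches printed hold 3 boxes for Hsd17b7, 2 for Nsdhl, 2 for Ebp and 1 for Insig1. In the windows searched, which also take in the 50 bases after the start, Nsdhl had 4. RefSeq promoter windows were available here for 27 of the 36 members, and not for Fdps, Fdft1 and Sqle among others. Of the 27, 23 had CCAAT on one strand or the other, and so did 13 of the 14 synthesis enzymes with a window. Of the 27025 genes with a window of that length, whether or not these cells express them, 41.1% did. Abca1 was among the 4 members without a box. The core of the sterol regulatory element, searched as TCACNCCAC on both strands, was in none of the 27 (1.44% of all genes), and the Gli core GACCACCCA was likewise in none (0.289% of all genes). Both motifs are rare among all genes, so that finding none in 27 says little about the members. With neither of these found, no overlap between motifs arose. These matches describe the letters of a short window alone, and nothing about binding of a factor is drawn from them.

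The libraries held from 14337225 to 14342154 counted reads, and a count of 0 at this depth allows up to 3 reads, or 0.209 CPM (reads scaled to a fixed library total), which covers counting error only. Ptch1 and Gli1 are the usual transcriptional readouts of Smo. Transcripts for Ptch1 rose from 521 ± 15.1 reads (SD, n = 3) to 10922.5 ± 475 (SD, n = 4), and those for Gli1 from 10.0 ± 2.65 to 2770.0 ± 295. The 7 mesenchymal markers were all present, with summed reads of 265486 to 273186 with vehicle and 241120 to 262384 with purmorphamine. Singly they moved in both directions: Vim fell from 80155 ± 1150 to 42480.0 ± 843 reads (log2 fold change -0.96), whereas Pdgfra and Thy1 rose (0.76 and 0.74), each without overlap between the groups. Markers of other cell types were low. Of 7 adipocyte markers, 2 had a row (Adipoq and Fabp4), and their summed reads were 47 to 65 with vehicle and 19 to 28 with purmorphamine. Of 6 macrophage markers, 5 had a row, with sums of 124 to 126 and 111 to 127 reads. Ptprc was at 0 except for 1 read in purmorphamine replicate 6, and Csf1r had at most 3 reads in a library. Of 4 hepatocyte markers, 1 had a row (Alb, at most 1 read). Within the macrophage sum, Cd14 fell from 68.3 ± 2.08 to 52.5 ± 7.51 reads (log2 fold change -0.43, adjusted p = 0.0263 from edgeR). Lyz2 went the other way, from 41.3 ± 1.53 to 51.0 ± 8.49 reads, and did not pass (0.26, adjusted p = 0.242 from edgeR). For both the groups did not overlap. Mesenchymal, adipocyte and macrophage markers thus moved with treatment, and their part in the changes below was not tested. In bulk RNA, fewer cells of a type and less RNA per cell cannot be told apart.

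Over the pathway as a whole, transcripts for a majority of the members changed by small amounts, with 8 of 17 enzymes of synthesis lower and 1 higher, and 3 of 5 genes of sterol sensing higher. Of the 36 members, 32 passed the filter on low counts. With purmorphamine 6 of these were higher and 14 lower at an adjusted p under 0.2, the FDR used in the study, by the quasi-likelihood test of edgeR, adjusted after Benjamini and Hochberg across the 12388 genes tested. The background is large: 62.5% of all genes tested passed in either direction, 31.4% upward and 31.1% downward. The share of members that passed, 62.5%, was thus the same as that of all genes, whereas 43.8% of the members were lower. The median log2 fold change was -0.11 for the members and 0.0038 for all genes, and the median size of a change, leaving out its sign, was 0.18 for the members and 0.20 for all genes. The deposited counts of the treatments did not overlap for 6 members that were higher and 9 that were lower, where 49.5% of all genes tested had no overlap, 29.1% upward and 20.4% downward. A change of at least 1.5-fold was found for 1 member upward (Scarb1) and 1 downward (Abca1), and among all genes for 7.89% upward and 7.56% downward.

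**Figure D1:**
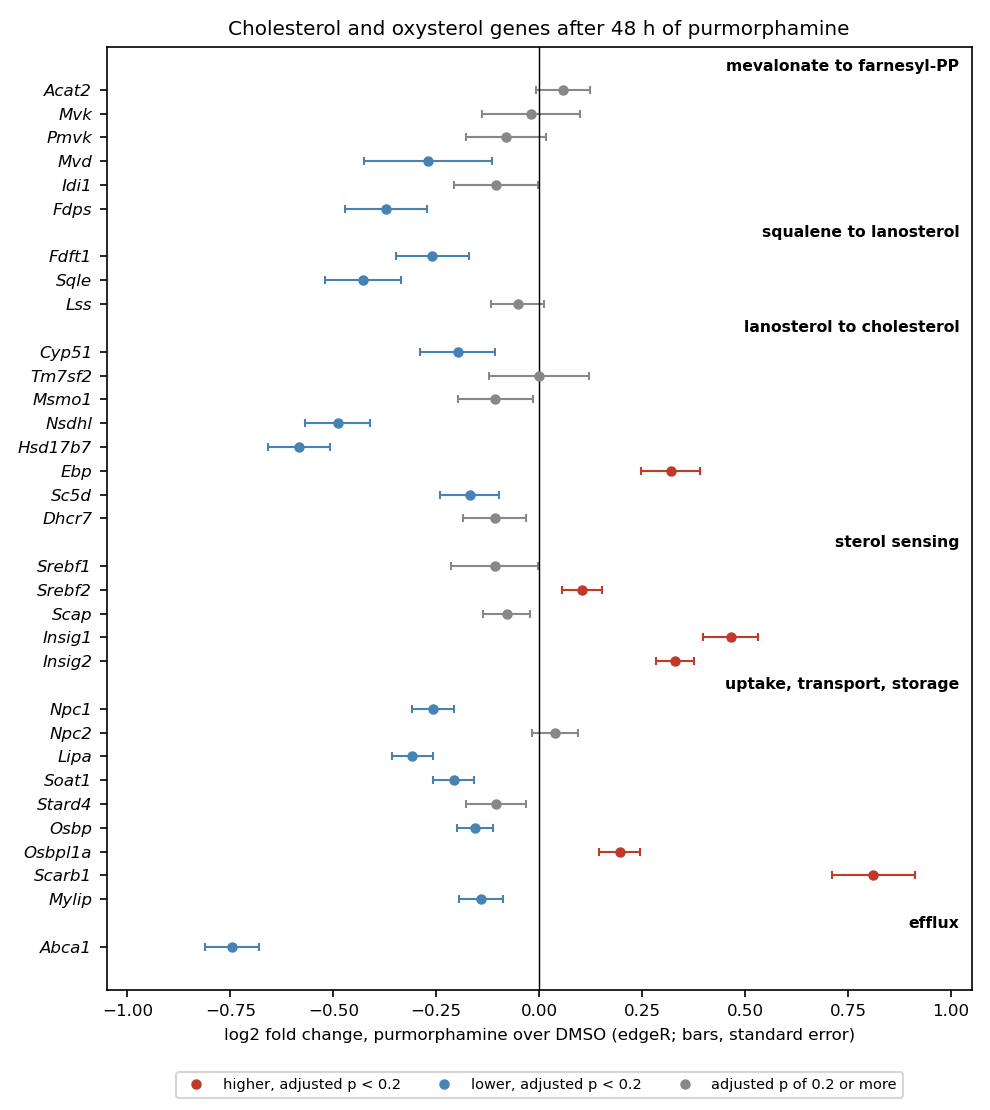
Log2 fold change of each member tested, purmorphamine over DMSO, from edgeR (x axis; bars, standard error), grouped by step of the pathway (y axis) and coloured by call. Points of the synthesis enzymes lie mostly left of 0 down to -0.58 (Hsd17b7), Ebp alone among them is coloured as higher, and Scarb1 (0.81) and Abca1 (-0.75) mark the ends.

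The mevalonate arm joins acetyl-CoA units and ends in farnesyl diphosphate, from which sterols, dolichol and the prenyl groups of proteins are made. Fdps (chromosome 3, 88897314 to 88906081 in mm9), the farnesyl diphosphate synthase, showed the largest change of the 6 members of this arm. It was counted at 998, 953 and 999 reads in the vehicle libraries, against 921, 685, 630 and 904 after purmorphamine. The purmorphamine libraries all lay below the vehicle libraries, with replicates 6 and 7 the lowest, and the log2 fold change was -0.37 with an SE of 0.10 (adjusted p = 0.00578, edgeR). Its exons share 1124 bases with a neighbouring gene model, Gm43738, on the same strand, and reads there could be assigned to either. Mvd, the mevalonate diphosphate decarboxylase, was also lower, at 93.7 ± 2.52 and 80.2 ± 17.4 reads (log2 fold change -0.27, SE 0.154, edgeR adjusted p = 0.165). The low mean of Mvd rested on purmorphamine replicate 7, which had 55 reads, and without it the log2 fold change was -0.12 and the adjusted p 0.453. Acat2 (the cytosolic thiolase), Mvk and Pmvk (the kinases of mevalonate and phosphomevalonate) and Idi1 (the isopentenyl diphosphate isomerase) did not pass, with log2 fold changes from -0.10 to 0.06. Acat2 has a close paralog in the mouse, and its reads are uncertain to that degree. The call of Idi1 depended on a library: without purmorphamine replicate 8, which held 532 reads, its log2 fold change was -0.22 and its adjusted p 0.0331, whereas without replicate 6 they were -0.015 and 0.909.

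Squalene is made from farnesyl diphosphate by Fdft1, oxidized by Sqle and closed to lanosterol by Lss. Sqle (chromosome 15, 59146432 to 59162947 in mm9), one of the slow steps of synthesis, was counted at 2583, 2504 and 2538 reads in the vehicle libraries, against 1994, 1581, 1830 and 2402 after purmorphamine. The vehicle libraries lay close together, the purmorphamine libraries were spread widely, and all 4 were below the lowest vehicle library. Its log2 fold change was -0.43 with an SE of 0.0915 (adjusted p = 0.0010, edgeR). Fdft1 went from 1237 ± 43.1 to 1067 ± 172 reads, and although it passed (log2 fold change -0.26, adjusted p = 0.0248 from edgeR), the groups overlapped, since purmorphamine replicate 8 had 1258 reads. Without purmorphamine replicate 6, at 856 reads the lowest, the log2 fold change of Fdft1 was -0.16. Lss did not pass, at 915 ± 48.5 and 911.5 ± 76.9 reads (log2 fold change -0.05, SE 0.0646, edgeR adjusted p = 0.535).

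Among the 17 listed enzymes of synthesis, the steps from lanosterol to cholesterol held the strongest decreases and the single increase. Lbr, a sterol reductase outside the list, was also higher (log2 fold change 0.37, adjusted p = 0.00036 from edgeR). Nsdhl and Hsd17b7, a dehydrogenase and a ketoreductase, work one after the other in removing methyl groups from lanosterol. Hsd17b7 (chromosome 1, 171879466 to 171899572 in mm9) was counted at 935, 882 and 832 reads in the vehicle libraries, against 641, 518, 601 and 676 after purmorphamine. The groups were well apart, and the fall, to 0.668 of the vehicle level, was the largest among the enzymes (log2 fold change -0.58, SE 0.0759, edgeR adjusted p = 7.46e-06).

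Nsdhl (chromosome X, 70163696 to 70204053 in mm9) had 1404, 1245 and 1316 reads with vehicle against 1033, 816, 942 and 1099. Again no library of one group reached the other, and the log2 fold change was -0.49 with an SE of 0.0782 (adjusted p = 6.44e-05, edgeR). The oxidase that acts before them in the same removal, Msmo1, did not pass. Its reads were many and variable, 3011 ± 139 with vehicle and 2889 ± 481 with purmorphamine (log2 fold change -0.11, adjusted p = 0.362 from edgeR), and without purmorphamine replicate 8 its log2 fold change was -0.20 with an adjusted p of 0.0517, whereas without replicate 6 it was -0.0010 with an adjusted p of 0.991.

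Ebp (chromosome X, 7762255 to 7770838 in mm9), the isomerase that shifts the double bond of the sterol ring, went the other way. It was counted at 474, 447 and 457 reads in the vehicle libraries, against 658, 610, 543 and 558 after purmorphamine. Each purmorphamine library was above each vehicle library, and the log2 fold change was 0.32 with an SE of 0.0718 (adjusted p = 0.00151, edgeR), a 1.25-fold increase. In the remaining steps the changes were smaller. Cyp51, the lanosterol demethylase, and Sc5d, the sterol desaturase, were lower with log2 fold changes of -0.20 and -0.17 (adjusted p = 0.0862 and 0.0647 from edgeR), and in both the groups overlapped. Without purmorphamine replicate 6, the values for Cyp51 and Sc5d were -0.09 and -0.09, and the adjusted p of Cyp51 was then 0.23. Cyp51 also lost its call without DMSO replicate 2 (-0.14, adjusted p = 0.308) and with DESeq2 (adjusted p = 0.29). Dhcr7, whose product is cholesterol itself, was at 345.7 ± 18.6 and 331.2 ± 22.4 reads and did not pass (log2 fold change -0.11, adjusted p = 0.263 from edgeR). Without purmorphamine replicate 8, the log2 fold change of Dhcr7 was -0.14 with an adjusted p of 0.164. Without replicate 6 they were -0.066 and 0.51. Tm7sf2, a sterol reductase with 101.7 ± 10.7 and 105.0 ± 9.42 reads, did not pass either. Its exons share 532 bases with Vps51 on the same strand, and reads there could be assigned to either.

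**Figure D2:**
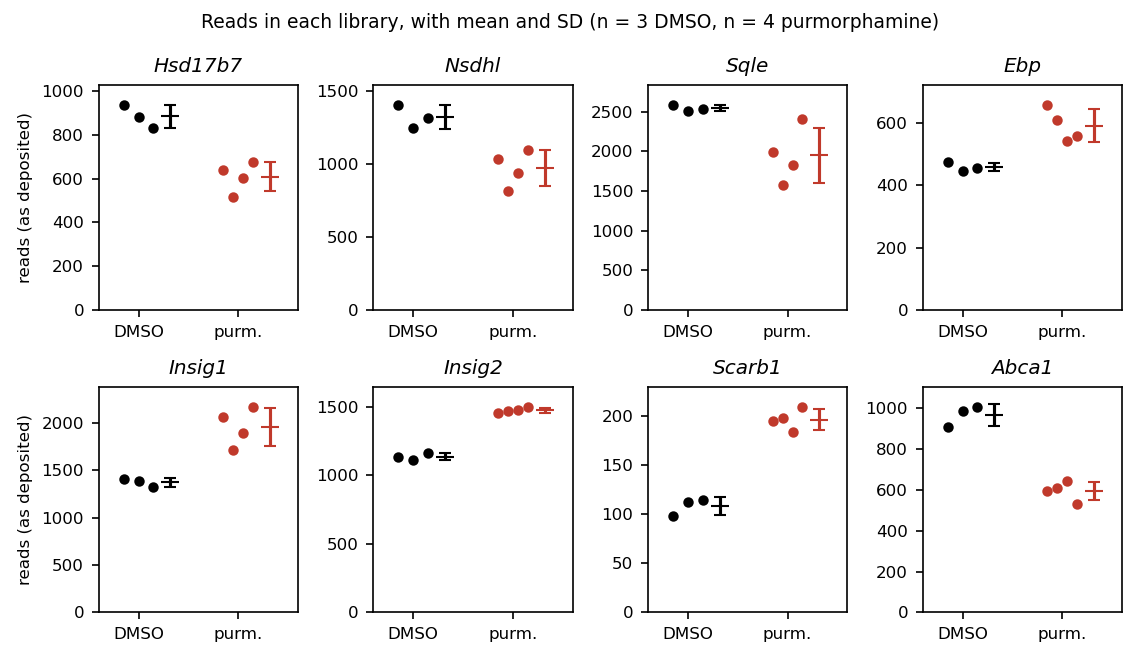
Reads as deposited (y axis, from 0) for 8 members in each DMSO library (black, n = 3) and each purmorphamine library (red, n = 4), with the mean and SD beside the points. The groups do not overlap in any panel: Hsd17b7, Nsdhl, Sqle and Abca1 are lower with purmorphamine and Ebp, Insig1, Insig2 and Scarb1 higher.

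Over all 17 synthesis enzymes in the table, each of which passed the filter on low counts, 8 were lower and 1 higher at an adjusted p under 0.2, and 8 did not pass. The share that passed was 52.9%, against 62.5% of all genes tested, and the share that was lower was 47.1%, against 31.1%. Their log2 fold changes had a median of -0.11, and 15 were negative, as were 6106 of the 12388 genes tested. The 15 include Tm7sf2 (-0.0006) and Mvk (-0.02), which were positive with library totals alone (0.0468 and 0.0273). The enzymes that did not pass had log2 fold changes from -0.11 to 0.06.

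The purmorphamine libraries differed among themselves along the whole of synthesis. Replicate 8 held the most reads, or as many as any, for 12 of the 17 enzymes, and replicate 6 the fewest for 11 of them. Replicate 7 held the fewest for the other 6. Summed over the 17 enzymes, the reads were 15872, 12829, 14395 and 17422 in purmorphamine replicates 5, 6, 7 and 8, and 17730, 16591 and 16639 in DMSO replicates 2, 3 and 4. Replicate 8 was thus within the range of vehicle, and replicates 5, 6 and 7 were below it, although the total reads of the 4 libraries were nearly equal. The enzymes share libraries, so that these counts describe the 4 libraries and not 17 separate observations. The spread was wider than usual: the median coefficient of variation over the enzymes was 3.80% with vehicle and 12.6% with purmorphamine, while over the 9677 genes tested with at least 100 reads with vehicle the medians were 4.37% and 6.16%. The members outside synthesis had medians of 3.64% and 5.23%. Leaving out purmorphamine replicate 8 raised the number of enzymes called lower from 8 to 11, and leaving out replicate 6 gave 7 lower and 2 higher, the second being Acat2 (log2 fold change 0.12, adjusted p = 0.0931 from edgeR).

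**Figure D3:**
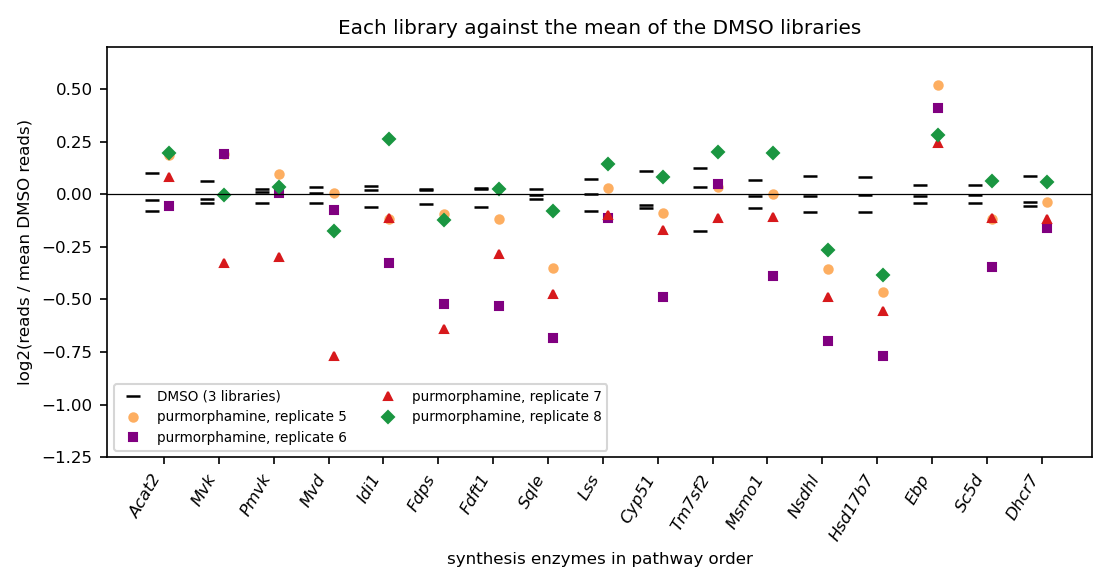
Log2 of the reads in each library over the mean of the DMSO libraries (y axis) for the 17 synthesis enzymes in pathway order (x axis), with black dashes for the DMSO libraries and a symbol for each purmorphamine library. Replicate 8 (diamonds) sits highest for most enzymes and replicate 6 (squares) lowest, while for Fdps, Sqle, Nsdhl and Hsd17b7 all 4 symbols are below the dashes and for Ebp all 4 are above them.

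Sterol sensing was measured through the SREBP genes, their escort and their retention factors. Insig1 (chromosome 5, 28397752 to 28405401 in mm9), which holds Scap and SREBPs in the endoplasmic reticulum and is itself a well known SREBP target, was counted at 1409, 1385 and 1322 reads in the vehicle libraries, against 2059, 1711, 1892 and 2166 after purmorphamine. All purmorphamine libraries were above all vehicle libraries, with the same order as for many enzymes, replicate 8 highest and replicate 6 lowest. The log2 fold change was 0.47 with an SE of 0.067 (adjusted p = 2.23e-05, edgeR), a 1.38-fold increase. Insig2 (chromosome 1, 123200730 to 123229366 in mm9), its homolog, had 1136, 1109 and 1162 reads against 1453, 1470, 1475 and 1497. The purmorphamine libraries were close to one another here, and the log2 fold change was 0.33 with an SE of 0.0461 (adjusted p = 1.67e-05, edgeR).

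Srebf2, which encodes the SREBP that serves cholesterol synthesis above all, rose slightly, from 2022 ± 35.6 to 2245 ± 119 reads (log2 fold change 0.10, SE 0.0491, edgeR adjusted p = 0.0932). Its deposited counts did not overlap, but after TMM scaling they did, and the call was lost without DMSO replicate 3 (adjusted p = 0.264) or purmorphamine replicate 5 (0.225). Srebf1, the SREBP of fatty acid synthesis and an LXR target, and Scap, the escort, did not pass, with log2 fold changes of -0.11 and -0.08 (standard errors 0.105 and 0.0568, adjusted p = 0.423 and 0.269 from edgeR).

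Among genes for uptake, movement and storage of sterols, 2 of 9 were higher and 5 lower, or 22.2% and 55.6%, where 31.4% and 31.1% of all genes tested were. Scarb1 (chromosome 5, 125757257 to 125821664 in mm9), the receptor that takes cholesteryl esters from high-density lipoprotein, had the largest increase of the 32 members tested. It was counted at 98, 112 and 115 reads in the vehicle libraries, against 195, 198, 184 and 209 after purmorphamine. The groups were far apart and tight, with a log2 fold change of 0.81 with an SE of 0.101 (adjusted p = 4.72e-06, edgeR), or 1.75-fold. Its level per length stayed low, at 12.7 reads per kilobase of exon with vehicle and 23.1 with purmorphamine, the lowest of the 32 members tested with vehicle.

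In the lysosome, Lipa frees cholesterol from its esters, and Npc2 and Npc1 hand it out to the rest of the cell. Lipa (chromosome 19, 34566608 to 34602164 in mm9) was counted at 3490, 3362 and 3616 reads in the vehicle libraries, against 2796, 2825, 2916 and 3108 after purmorphamine. The groups did not overlap, and the log2 fold change was -0.31 with an SE of 0.0494 (adjusted p = 6.7e-05, edgeR). Npc1 was likewise lower, from 955.7 ± 38.6 to 825.2 ± 10.8 reads (log2 fold change -0.26, SE 0.0508, edgeR adjusted p = 0.000478), again with no overlap. Npc2 did not pass, at 7924 ± 465 and 8410.5 ± 532 reads (log2 fold change 0.04, SE 0.0551, edgeR adjusted p = 0.60). Soat1, which esterifies cholesterol for storage, fell from 1398 ± 13.1 to 1250.2 ± 54.8 reads (log2 fold change -0.21, adjusted p = 0.0023 from edgeR).

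Members of the oxysterol-binding protein family moved apart. Osbp, the founding member, which exchanges sterol for a phosphoinositide where the endoplasmic reticulum meets the Golgi, went from 1804 ± 29.0 to 1673 ± 23.7 reads (log2 fold change -0.16, adjusted p = 0.00687 from edgeR). Osbpl1a, a homolog found on late endosomes, went from 1456 ± 39.0 to 1722 ± 82.3 (0.20, adjusted p = 0.00428). For both the groups did not overlap. Mylip, the ubiquitin ligase through which LXR limits lipoprotein uptake, was a little lower (log2 fold change -0.14, SE 0.053, edgeR adjusted p = 0.0365). Its groups overlapped in the deposited counts but not after TMM scaling. Stard4, a soluble carrier of cholesterol, did not pass (-0.10, adjusted p = 0.26), and without purmorphamine replicate 8 its log2 fold change was -0.16 with an adjusted p of 0.0662, whereas without replicate 6 it was -0.023 with an adjusted p of 0.76.

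Of the 2 transporters that export cholesterol, Abca1 (chromosome 4, 53043459 to 53172967 in mm9), which loads it onto apolipoproteins and is a classic LXR target, had the largest decrease of the members tested. It was counted at 906, 987 and 1004 reads in the vehicle libraries, against 596, 609, 641 and 532 after purmorphamine. The highest purmorphamine library was far below the lowest vehicle library, and the log2 fold change was -0.75 with an SE of 0.0656 (adjusted p = 6.02e-08, edgeR), a level 0.596 of that with vehicle. Abcg1, its partner in export to high-density lipoprotein, was close to silent, with 4, 3 and 0 reads in the vehicle libraries, against 0, 2, 0 and 0 after purmorphamine. It was not tested, and no difference was detectable at this depth.

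The same held for the 3 enzymes of the list that make or break down oxysterols, whereas Cyp39a1, an oxysterol hydroxylase outside it, had a mean of 568 reads with vehicle. Ch25h, the cholesterol hydroxylase whose product activates LXR and inhibits SREBP processing, was counted at 1, 8 and 5 reads in the vehicle libraries, against 6, 6, 2 and 0 after purmorphamine. Cyp7b1, which clears side-chain oxysterols, had 0, 1 and 3 reads against 2, 1, 0 and 0, and Cyp27a1, the mitochondrial hydroxylase, had 1 read in a single library (purmorphamine replicate 8). None of the 3 passed the filter on low counts, and their groups overlapped.

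**Figure D4:**
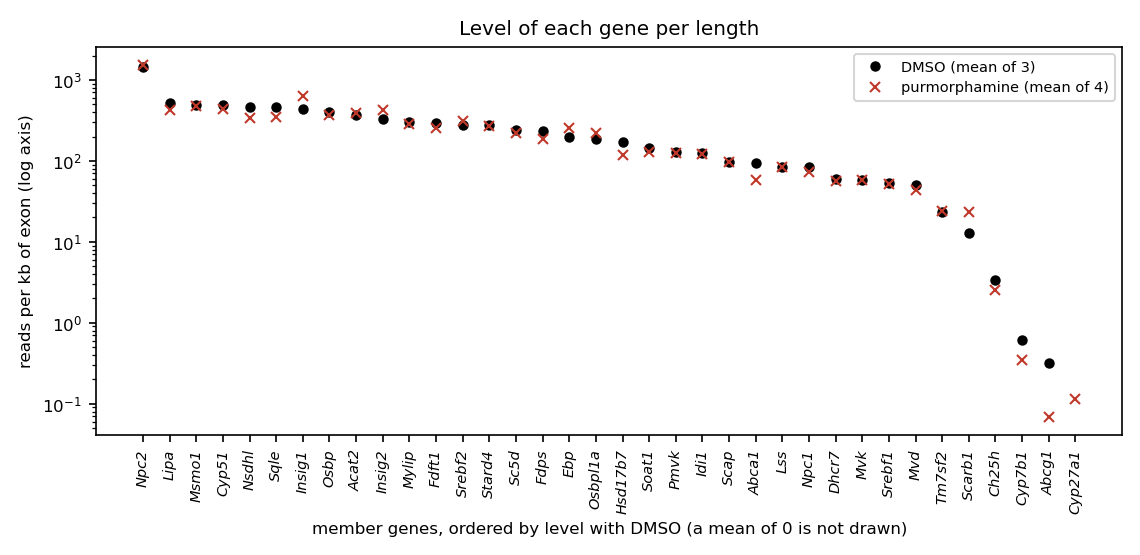
Mean reads per kilobase of exon (log y axis) of the 36 members with DMSO (circles, mean of 3) and purmorphamine (crosses, mean of 4), ordered by the level with DMSO (x axis). Npc2 stands at the top (1457 with DMSO), most members lie between 50.4 (Mvd) and 515 (Lipa), and Ch25h, Cyp7b1, Abcg1 and Cyp27a1 form the tail, where Cyp27a1 has no circle because its DMSO mean is 0.

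The levels per length, given with vehicle as reads per kilobase of exon in GENCODE M21, placed the members in this order. Npc2 was highest at 1457, followed by Lipa (515), Msmo1 (490), Cyp51 (490), Nsdhl (463), Sqle (458) and Insig1 (444). With purmorphamine Insig1 was at 633, above all members but Npc2, and Nsdhl and Sqle were at 341 and 352. In the mevalonate arm Acat2 was at 368, Fdps at 234 and Mvd at 50.4 reads per kilobase. Ch25h was at 3.36.

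A further list of 51 genes, from the branches around the pathway, was examined in the same fit, and 44 of these were tested. Of them 15 were higher and 13 lower, or 34.1% and 29.5%, shares near those of all genes. In the branches that lead from farnesyl diphosphate to dolichol, ubiquinone and protein prenylation, 2 of 11 were higher and 3 lower, with log2 fold changes from -0.35 to 0.10. These are 18.2% and 27.3%, where 31.4% and 31.1% of all genes tested were. Over the whole of this further list, a change of at least 1.5-fold was found for 3 genes upward and 4 downward. Vldlr, a lipoprotein receptor, went from 182 ± 12.7 to 335 ± 29.1 reads (log2 fold change 0.83, adjusted p = 9.66e-07 from edgeR). Rora, a nuclear receptor that binds sterols, went from 1191 ± 4.16 to 1942 ± 84.9 (0.66, adjusted p = 9.42e-09), and Lrp1, a large endocytic receptor, from 16300.3 ± 2084 to 26342 ± 3291 (0.65, adjusted p = 1.62e-05). Downward, Cav1, the cholesterol-binding coat protein of caveolae, went from 774 ± 43.3 to 270.0 ± 19.1 reads (-1.57, adjusted p = 1.08e-11). Gramd1b, which carries cholesterol from the plasma membrane to the endoplasmic reticulum, went from 169 ± 12.0 to 82.2 ± 6.65 (-1.08, adjusted p = 4.03e-07), and Stard5, another carrier, from 476 to 496 reads over the vehicle libraries to 287 to 310 over the purmorphamine libraries (-0.74, adjusted p = 7.72e-08). Osbpl10 was low and variable, at 39.3 ± 7.51 and 27.0 ± 8.16 reads (-0.59, adjusted p = 0.0472), with overlap between the groups. In these 7 genes other than Osbpl10 no library of one group reached the other.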

How the data were processed

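The deposited values are whole read counts per gene. The authors resampled the reads of the stranded, ribosome-depleted total RNA libraries to equal numbers and then counted them by gene, and the submitters' processing notes name STAR 2.5.3a and mm9. The annotation used for counting is not given in the sources used here. The authors tested their counts with limma-voom.

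Here the counts were tested with edgeR 4.0.16 (limma 3.58.1, R 4.3.3): scaling by TMM, filtering by filterByExpr at its defaults (minimum 10, total 15), a quasi-likelihood test of 4 purmorphamine against 3 DMSO libraries without covariates, and Benjamini-Hochberg adjustment over 12388 genes, with calls at an adjusted p under 0.2. Each SE is the size of the log2 fold change over the root of F. Fold changes are relative to the typical gene of a library, as TMM scaling makes them. The script was tested on simulated data. Totals ran from 14337225 to 14342154 reads.

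Members in the table were named in full, with counts in every library for those called at a log2 fold change of at least 0.3 in size and with no overlap, for the largest change of each role and for those not tested. Of the further list, genes called at 1.5-fold or more were named. The members and lists were chosen with earlier results of these data known. Exon lengths and overlaps were taken from GENCODE M21 by Ensembl identifier, and promoters from RefSeq GRCm38.p6 by symbol. The counts rest on mm9, and no coordinates were converted. Alternatives were no TMM scaling, RLE factors, DESeq2 1.42.0, limma-voom, other filters, stricter thresholds and each library left out. No column of a sample was left unused.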

Additional observations from a re-analysis of the deposited data

Results flagged for a closer look

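In the purmorphamine group, 1 library stood apart from the other 3 for 2 of the 36 members, both of them nearly silent. For Abcg1, purmorphamine replicate 6 was highest, and its distance from the next value, after TMM scaling, was 1.0 of the group's whole range, since it held 2 reads and the others 0. For Cyp27a1 the same share, 1.0, came from the single read of purmorphamine replicate 8. Over 36 genes chance alone gives about 1.8 such cases if values vary continuously. That figure does not hold for counts near 0, where reads in a single library give a share of 1.0 by construction. Neither gene was tested for an effect of purmorphamine, and groups of 3 libraries are too small for this comparison. No cause was tested.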

How the results depend on the processing

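No paired analysis was possible because the vehicle libraries are numbered 2 to 4 and the purmorphamine libraries 5 to 8. A required change of 1.5-fold lowered the numbers most, by its construction: to 1 higher and 1 lower of the members, 0 higher and 0 lower of the synthesis enzymes, and 3 higher and 4 lower of the other pathway genes. At an adjusted p under 0.05, 5 synthesis enzymes and 8 other pathway genes were lower. With single libraries left out, members ran from 5 to 7 higher and from 12 to 18 lower, synthesis enzymes from 1 to 2 higher and from 6 to 11 lower, and other pathway genes from 12 to 16 higher and from 10 to 15 lower. The other settings left these numbers within 1.5 times. No member that was called changed sign in any alternative. Mvd was the least stable, losing its call in 7 of 14 alternatives (adjusted p from 0.103 to 0.453), and Cyp51 lost it in 4 of 14 (0.0132 to 0.308). The cause was not tested. Using library totals alone moved the median log2 fold change of all genes by 0.0475 and took the share of increases among calls from 50.2% to 59.5%, while members were then 6 higher and 13 lower. What depth limits is Abcg1, Ch25h, Cyp7b1 and Cyp27a1, with at most 8 reads in a library.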

Other observations

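Insig1 and Sqle are both known SREBP targets, and the ratios given here were formed after the values had been seen, as a description without a test. The reads of Insig1 over those of Sqle were 0.545, 0.553 and 0.521 with vehicle, against 1.03, 1.08, 1.03 and 0.902 after purmorphamine, a mean of 0.540 ± 0.0168 (SD, n = 3) and 1.01 ± 0.0774 (SD, n = 4). Ebp over Hsd17b7, neighbours in the route from lanosterol, was 0.521 ± 0.0245 and 0.983 ± 0.154. For both ratios the separation of the groups follows from the choice of genes that moved in opposite directions. Insig1 over Insig2, both of which rose, was 1.21 ± 0.0619 and 1.33 ± 0.130, with overlap between the groups.

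Other genes outside the rule for naming, picked after their values were seen, concern sterol reduction and the handling of oxysterols and bile acids. Of 5 such enzymes tested, 3 were higher and 1 lower, or 60% and 20%, where 31.4% and 31.1% of all genes tested were. Cyp39a1, an oxysterol hydroxylase, Hsd3b7, an early enzyme of bile acid synthesis, and Lbr, a sterol reductase of the nuclear envelope, were higher. Their log2 fold changes were 0.44, 0.39 and 0.37 (adjusted p = 0.000128, 0.00113 and 0.00036 from edgeR). Hsd11b1 was lower (-0.21, adjusted p = 0.055), and Cyp46a1 did not pass (0.40, adjusted p = 0.241). Nr1h2, which encodes LXRβ, was higher (0.33, adjusted p = 0.0208), whereas Nr1h3, which encodes LXRα, had a mean of 10.3 ± 4.04 reads with vehicle and 7.75 ± 1.5 with purmorphamine and was not tested.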
